A study of Mus musculus with 9 samples.

Results

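The genes described here are 4 chemokine genes whose products recruit neutrophils (Cxcl1, Cxcl2, Cxcl3 and Cxcl5), 3 colony-stimulating factor (CSF) genes (Csf1, Csf2 and Csf3) and 3 CSF receptor genes (Csf2ra, Csf2rb and Csf3r). They were chosen by name, and each symbol was matched to a single Ensembl row, which gave 10 of the 55655 rows of the RNA-seq tables. Bone marrow-derived macrophages (BMDMs) were grown from femur and tibia marrow of wild-type C57BL/6 mice aged 6 to 8 weeks, described as male in the methods, in medium with 10 ng/mL M-CSF for 7 days. M0 cells were resting macrophages. M1 cells were given LPS, a bacterial cell wall component, together with IFN-γ, and M1 + PBM cells received the same inducers with photobiomodulation (PBM), an irradiation with near-infrared laser light. For the PBM comparison, M1 and M1 + PBM cells were examined 12 hours after induction. All 9 libraries, 3 for each group, came from cells that had been cultured in M-CSF, the protein that Csf1 encodes. The labels do not say which culture or animals each library came from. The RNA-seq experiment is described as independently repeated, p-values measure the spread between these libraries, and the sex-linked transcripts given below show that the M1 libraries did not all come from the same animals.

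CXCL1, CXCL2, CXCL3 and CXCL5 are small secreted proteins that bind the receptor CXCR2 and draw neutrophils out of the blood into inflamed tissue. The CSFs act on myeloid cells. M-CSF, the product of Csf1, keeps macrophages alive, GM-CSF (Csf2) primes macrophages and granulocytes, and G-CSF (Csf3) drives the production and release of neutrophils. Macrophages transcribe most of these ligand genes when LPS engages its receptor and NF-κB enters the nucleus, and many of the transcripts carry AU-rich elements in the 3′ UTR, through which they are rapidly degraded.

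Values are FPKM, in which fragments are scaled to the length of the transcript and to the size of the library, so that levels can be compared between genes. The steps in the low values put the libraries at 31210000 to 42370000 fragments, a rough estimate because 24.2% to 31.8% of these values lay within 0.05 of a whole step, where evenly spread values would give 10%. Macrophage markers, summed over 8 genes, ran from 5499 to 10341 FPKM in the 9 libraries. Lyz2 made up most of this, with a mean of 4681 FPKM in M1 and 4237 in M1 + PBM. Mertk was the lowest of the 8 in these groups, with 23.7 and 28.4. Of 10 neutrophil markers, 7 stayed under 1 FPKM in all 9 libraries, and Ly6g and S100a9 were listed at 0 throughout. The other 3, S100a8, Camp and Mmp8, were detected, and S100a8 had a mean of 16.9 FPKM in M1 and 8.79 in M1 + PBM. The summed neutrophil markers ran from 3.14 to 5.74 FPKM in M0, from 9.91 to 28.8 in M1 and from 8.09 to 16.6 in M1 + PBM, and their part in the values below was not tested. A pair of features of the libraries bear on all that follows. First, M0 replicate 3 stood apart from the other M0 libraries. Its summed fibroblast markers (8 genes) reached 197.3 FPKM, against 7.20 and 5.83 in M0 replicates 1 and 2, and its summed M1 markers reached 284.1 FPKM, against 30.3 and 28.5. Second, transcripts linked to sex differed between replicate numbers. All 4 Y-linked genes examined were listed at 0 in replicate 3 of M1 and of M1 + PBM, where Xist, the transcript of the inactive X chromosome, had 55.7 and 64.8 FPKM. Replicate 1 of each group held both Xist (11.6 to 23.6 FPKM) and the Y-linked transcripts. The M1 and M1 + PBM libraries of one number were alike in this respect, so changes within each number are given beside the group values.

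The promoters of the 3 chemokine genes with the largest falls are shown because they share an element. Promoter sequences of RefSeq (build GRCm38.p6) were found for 7 of the 10 genes and not for Cxcl5, Csf3 and Csf2rb. Each sequence below is the 250 bases before the transcription start, 5′ to 3′. Capitals mark matches to a degenerate NF-κB motif that GGGAATTTCCC meets on both strands, to the C/EBP motif TTNNGNAA in Cxcl2 and to the TATA motif TATAAA in Cxcl3.
Cxcl1 promoter, chr5:90890995-90891244, plus strand: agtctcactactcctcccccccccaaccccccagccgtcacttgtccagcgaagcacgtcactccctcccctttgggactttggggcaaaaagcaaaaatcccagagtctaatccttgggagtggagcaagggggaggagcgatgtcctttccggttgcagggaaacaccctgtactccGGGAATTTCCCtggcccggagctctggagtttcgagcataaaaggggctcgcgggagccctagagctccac
Cxcl2 promoter, chr5:90903649-90903898, plus strand: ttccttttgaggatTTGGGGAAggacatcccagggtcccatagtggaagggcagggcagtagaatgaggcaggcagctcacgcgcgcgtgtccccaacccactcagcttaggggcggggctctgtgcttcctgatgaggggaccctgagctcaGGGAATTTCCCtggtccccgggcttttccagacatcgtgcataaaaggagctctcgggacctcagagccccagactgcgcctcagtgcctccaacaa
Cxcl3 promoter, chr5:90785851-90786100, plus strand: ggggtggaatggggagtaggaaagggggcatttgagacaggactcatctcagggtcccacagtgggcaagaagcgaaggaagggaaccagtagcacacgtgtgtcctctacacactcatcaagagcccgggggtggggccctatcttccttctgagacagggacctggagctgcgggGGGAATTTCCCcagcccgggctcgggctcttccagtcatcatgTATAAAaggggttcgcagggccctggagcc

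The same 11 letters, GGGAATTTCCC, stood 71 to 61 bases before the start in Cxcl1, 97 to 87 bases before it in Cxcl2 and 73 to 63 bases before it in Cxcl3. They read the same on both strands and gave 2 overlapping matches in each promoter. A match to the degenerate motif on either strand was found in 5 of the 7 promoters and in 7.25% of 32851 RefSeq promoters of the same length. The other matches, in Csf1 and Csf3r, had different letters, GGAAAGTCCC and GGAAGGTCCC. The C/EBP motif was found in Cxcl2, Csf2 and Csf2ra, against 36.8% of all promoters. TATAAA on the sense strand was found in Cxcl3, against 7.59%. The AP-1 motif TGANTCA was found in 0 of the 7, against 6.75%. A match of letters is a description and not a site of binding.

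**Figure D1:**
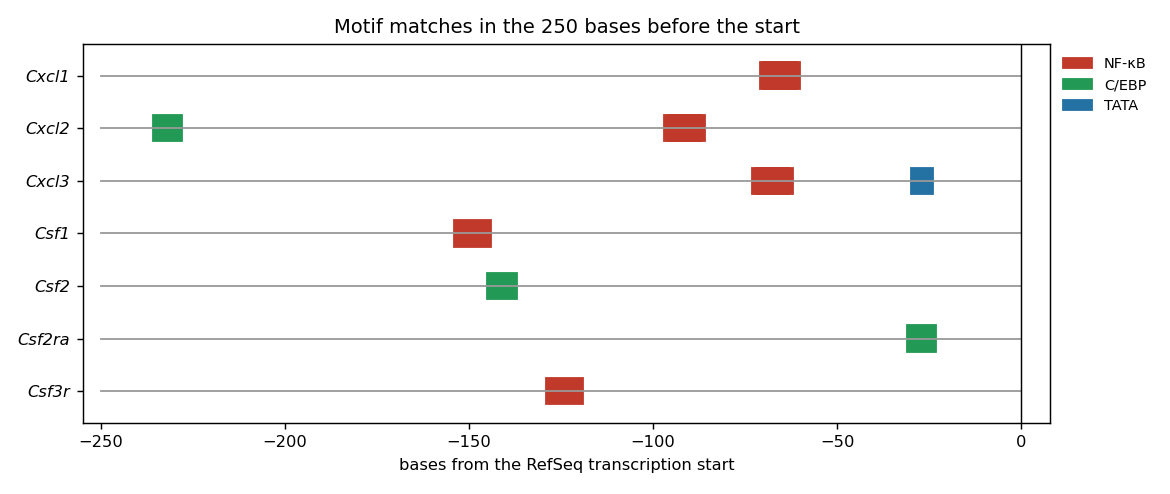
Positions of motif matches in the 250 bases before the RefSeq transcription start of 7 genes; the horizontal axis gives bases from the start, each line is a promoter and each box a match. The NF-κB boxes of Cxcl1, Cxcl2 and Cxcl3 lie between 97 and 61 bases before the start, and those of Csf1 and Csf3r farther upstream.

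In M1 macrophages the receptors and Cxcl2 were the most abundant of the 10 transcripts. Csf3r had a mean of 116.8 ± 17.1 FPKM (SD, n = 3 for all means here), Cxcl2 102.2 ± 52.9, Csf2rb 66.1 ± 8.34 and Csf2ra 61.7 ± 10.0. Next came Csf3 with 23.4 ± 21.1, Cxcl1 with 12.2 ± 9.71, Cxcl3 with 7.48 ± 5.46 and Csf1 with 6.18 ± 0.85. Cxcl5 had 1.32 ± 0.44 FPKM and Csf2 0.27 ± 0.16. Neighbours in this order overlapped between libraries, except Csf2ra and Csf3, Csf1 and Cxcl5, and Cxcl5 and Csf2.

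**Figure D2:**
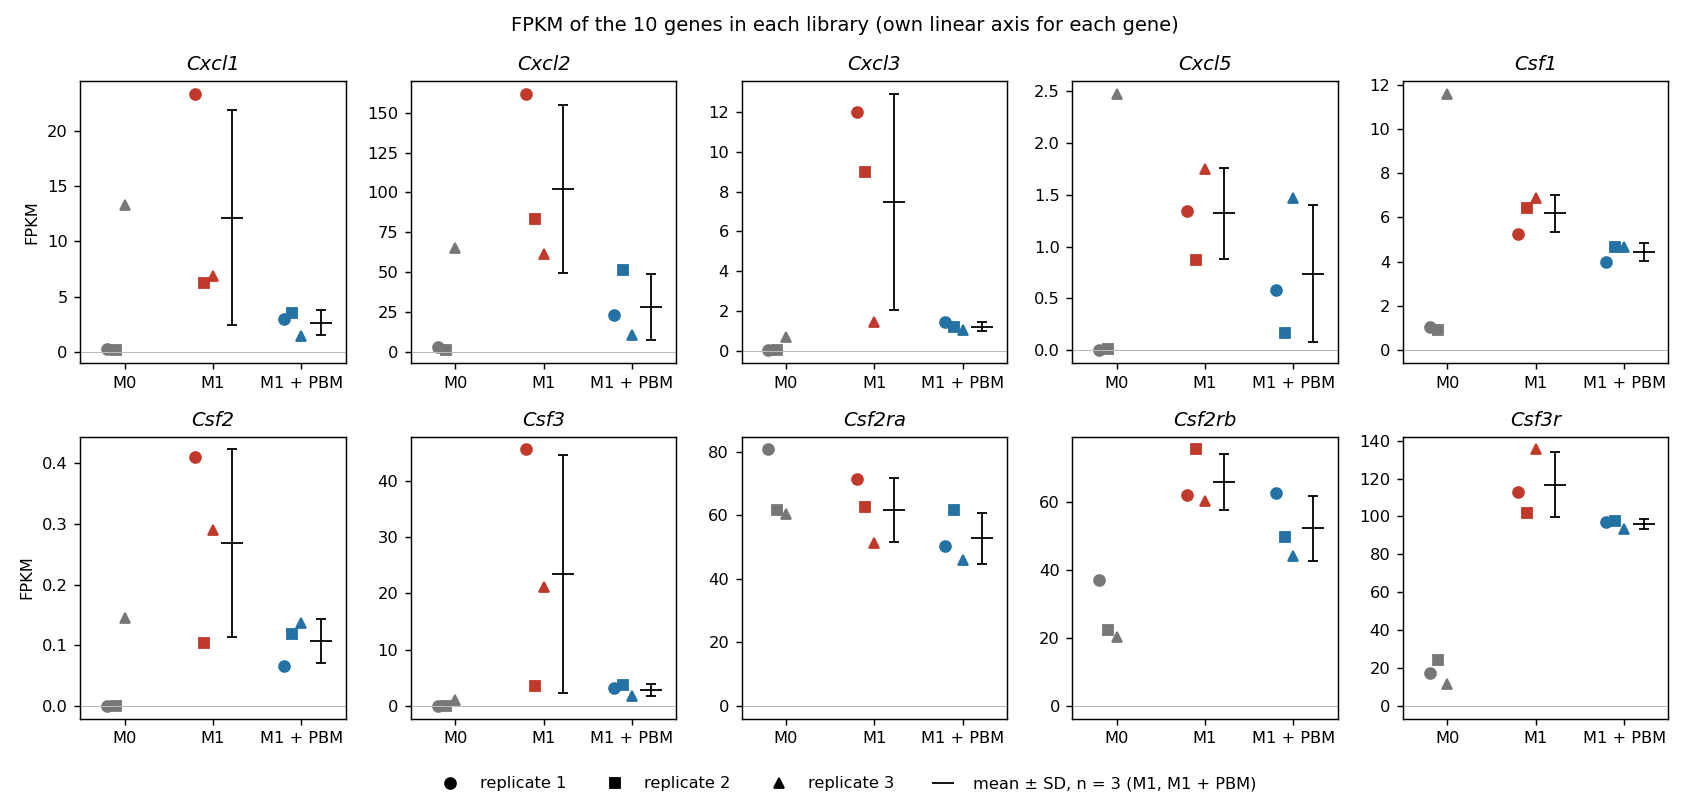
FPKM of each gene in the 9 libraries, on a linear axis of its own; symbols are single libraries by replicate number, and bars are the mean ± SD of M1 and of M1 + PBM. Cxcl1, Cxcl2 and Csf1 are lower in every M1 + PBM library than in every M1 library, and M0 replicate 3 lies far above the other M0 libraries for Cxcl1, Cxcl2, Cxcl5 and Csf1.

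The question of whether PBM changed these transcripts in M1 cells was addressed with limma on log2(FPKM + 1), a scale that understates the change of low genes. A gene was called where its log2 fold change was at least 1 in size and its p, before adjustment, no more than 0.05, the thresholds of the study. Of the 10 genes, 9 passed the filter of 1 FPKM in at least 3 of the 6 libraries, and Csf2 did not. Lower in M1 + PBM were 9 of the 9, and 4 were called, Cxcl1, Cxcl2, Cxcl3 and Csf3. The same rule called 0.237% of all 12238 rows tested as lower (0.261% in either direction), and 34.4% of these rows had a log2 fold change below 0. The median log2 fold change was -0.47 over the 9 genes and 0.058 over all rows tested. Of 8 M1 marker genes, 7 also had a log2 fold change below 0, with a median of -0.43, and 1 was called, Nos2, the gene of iNOS (log2 fold change -1.38). After Benjamini-Hochberg adjustment 0 of the 9 passed 0.05, as 0.00817% of all rows did, and each had an adjusted p of 0.90 (limma). Before adjustment 5 of them reached 0.05 on the lower side, against 1.45% of all rows. In bulk RNA, fewer cells that transcribe a gene and less RNA per cell cannot be told apart. With 3 libraries against 3, the exact permutation test cannot give a p below 0.1.

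Cxcl2 (ENSMUSG00000058427), which encodes MIP-2, was the most abundant of the chemokine transcripts. It had 161.9, 83.6 and 61.1 FPKM in M1 replicates 1 to 3 and 23.2, 51.0 and 10.5 in M1 + PBM replicates 1 to 3. Every M1 + PBM library lay below every M1 library, although M1 + PBM replicate 2 came close to M1 replicate 3. In limma the log2 fold change was -1.96 ± 0.60 (standard error), the unadjusted p 0.015 and the 95% interval -3.40 to -0.53. Within the replicate numbers the change was -2.75, -0.70 and -2.44. The mean FPKM of M1 + PBM was 27.6% of that of M1. Without replicate 1 of both groups the fold change was -1.57 and the call was lost.

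Cxcl1 (ENSMUSG00000029380), which encodes KC, had 23.4, 6.23 and 6.90 FPKM in M1 and 3.02, 3.53 and 1.43 in M1 + PBM. No library of one group reached into the range of the other, and M1 replicate 1 was far above the other 5 libraries. Its log2 fold change came to -1.66 ± 0.50 (limma, unadjusted p = 0.014), and it stayed past the thresholds in every fit with libraries left out. Replicate by replicate it was -2.60, -0.67 and -1.70. The ratio of Cxcl2 to Cxcl1 ran from 6.93 to 13.4 in M1 and from 7.30 to 14.5 in M1 + PBM, and replicate 2 held the highest ratio in both groups.

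Cxcl3 (ENSMUSG00000029379), a close paralogue of Cxcl2, had 12.0, 9.02 and 1.42 FPKM in M1 and 1.44, 1.18 and 1.02 in M1 + PBM. The groups overlapped, because M1 replicate 3 was already as low as the PBM libraries. The fold change was -1.63 ± 0.60 on the log2 scale (limma, unadjusted p = 0.033), and the exact permutation p was 0.2. The call was lost when replicate 1 (-1.16) or 2 (-1.35) of M1 was left out, and likewise for each of M1 + PBM replicates 1 to 3 (-1.70, -1.62 and -1.56). Without M1 replicate 3 it was -2.37 and stayed called. The change was -2.41 and -2.20 in replicates 1 and 2 and -0.26 in replicate 3. Coding sequences of Cxcl2 and Cxcl3 were 89.7% identical, and 6.31% of the 50-base windows of Cxcl3 transcripts also occurred in Cxcl2, so some reads could have been split between them.

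Cxcl5 (ENSMUSG00000029371), which encodes LIX, was close to the filter. Its values were 1.34, 0.87 and 1.75 FPKM in M1 and 0.58, 0.17 and 1.47 in M1 + PBM. The groups overlapped, and the log2 fold change of -0.47 ± 0.29 had an interval from -1.16 to 0.23 (limma). With the replicate number as a block its unadjusted p went from 0.15 to 0.021 (limma), still short of the fold threshold.

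Csf3 (ENSMUSG00000038067), the gene of G-CSF, had the largest fitted fall of the 10 genes and the largest standard error of the 9 tested. The rank depended on single libraries. Cxcl2 had a larger fall than Csf3 without replicate 1 of M1 (-1.57), replicate 3 of M1 (-2.27) or replicate 2 of M1 + PBM (-2.51). Without M1 replicate 3 the fall of Cxcl3 was larger still, at -2.37. M1 libraries held 45.6, 3.60 and 21.1 FPKM, and M1 + PBM libraries 3.09, 3.77 and 1.71. M1 replicate 2 lay within the range of the PBM libraries, so the groups overlapped. Limma gave a log2 fold change of -2.16 ± 0.80, an unadjusted p of 0.033 and an interval from -4.09 to -0.23, and the exact permutation p was 0.2. It was -3.51 and -3.03 in replicates 1 and 3 and 0.053 in replicate 2. The call ended when replicate 1 (-1.43) or 3 (-1.96) of M1, or any of M1 + PBM replicates 1 to 3 (-2.22, -2.33 and -1.93), was left out, and without M1 replicate 2 the fold change was -3.10.

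Csf1 (ENSMUSG00000014599), the gene of M-CSF, differed from Csf3 in its small spread. It had 5.23, 6.44 and 6.87 FPKM in M1 and 3.97, 4.68 and 4.66 in M1 + PBM. All M1 + PBM libraries were below all M1 libraries, and the change was of like size in each number, at -0.33, -0.39 and -0.47. At -0.40 ± 0.12 (limma, unadjusted p = 0.016) the log2 fold change was under the fold threshold. Csf2 (ENSMUSG00000018916), the gene of GM-CSF, was near the limit of detection in all libraries. It had 0.41, 0.10 and 0.29 FPKM in M1 and 0.065, 0.12 and 0.14 in M1 + PBM, which by the estimated depth stands for 1.81 to 13.3 fragments a library. The groups overlapped (log2 difference -0.19, exact permutation p = 0.3), and no difference was detectable at this depth.

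None of the 3 receptor genes passed an unadjusted 0.05, and their log2 fold changes lay between -0.34 and -0.22. Csf3r (ENSMUSG00000028859), which encodes the G-CSF receptor, had 113.0, 101.9 and 135.4 FPKM in M1 and 97.2, 97.8 and 93.2 in M1 + PBM. Every M1 + PBM library was lower than every M1 library, and the log2 fold change was -0.27 ± 0.13, with an interval from -0.58 to 0.039 (limma). Of the windows of Csf3r transcripts, 11.2% at 50 bases and 0.41% at 100 bases also occurred in other genes, so the assignment of some reads is uncertain. Csf2ra (ENSMUSG00000059326), the ligand-binding chain of the GM-CSF receptor, had 71.3, 62.5 and 51.3 FPKM in M1 and 50.2, 61.7 and 46.0 in M1 + PBM, a log2 fold change of -0.22 with an interval from -0.62 to 0.18. Csf2rb (ENSMUSG00000071713), the shared β chain that carries the signal of GM-CSF, IL-3 and IL-5, had 62.2, 75.7 and 60.4 FPKM in M1 and 62.9, 49.8 and 44.3 in M1 + PBM. Its log2 fold change was -0.34, with an interval from -0.73 to 0.052, and it was 0.017 in replicate 1. For Csf2ra and Csf2rb the groups overlapped. Coding sequences of Csf2rb and its copy Csf2rb2 were 95.2% identical, so the split of reads between them is uncertain. Of the windows of Csf2rb transcripts, 6.96% at 100 bases occurred in Csf2rb2 and 18.4% at 50 bases occurred in other genes. Csf2rb2 had a log2 fold change of 0.0040, with an interval from -0.49 to 0.50.

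Over the 9 tested genes, groups without overlap were found for 4, Cxcl1, Cxcl2, Csf1 and Csf3r, all lower, against 2.52% of all rows tested on the lower side. Lower in each of the 3 replicate numbers were 7 of the 9, against 10.1% of all rows. The other 2 were Csf3 and Csf2rb.

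**Figure D3:**
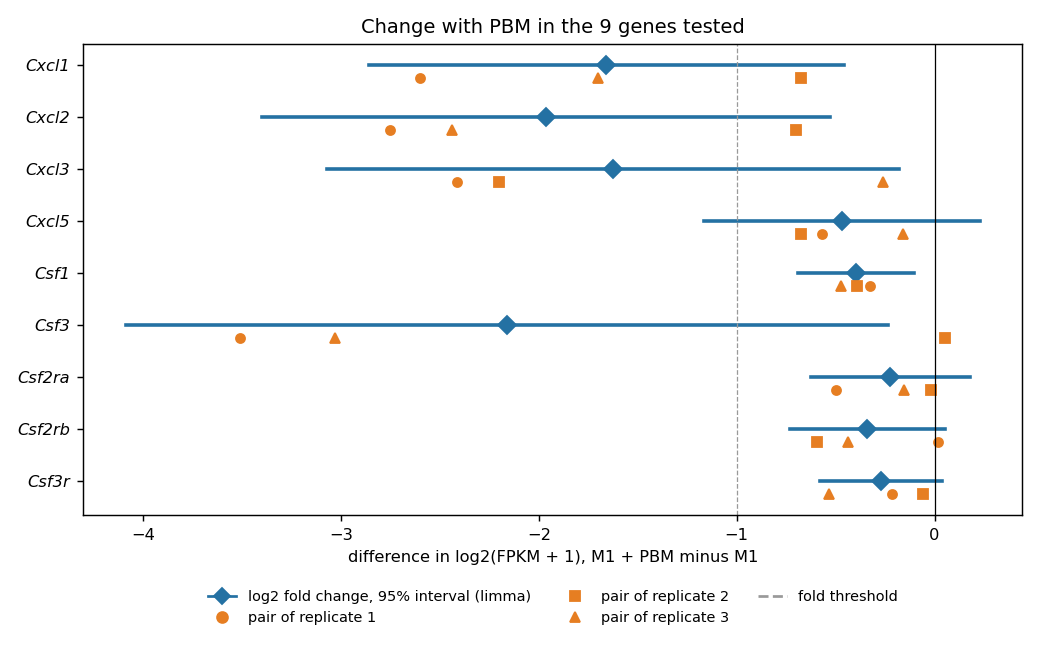
Change of each tested gene, M1 + PBM minus M1 in log2(FPKM + 1); diamonds and lines are the limma estimate and its 95% interval, and small symbols the change within each replicate number. The intervals of Cxcl1, Cxcl2, Cxcl3, Csf1 and Csf3 lie below 0, and the receptors sit between -0.34 and -0.22.

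Other genes of these pathways were taken from lists. Among 12 relatives of the ligands and receptors 4 could be tested and 0 were called. Cxcr2, the receptor of the 4 chemokines, was listed at 0 in all M1 and M1 + PBM libraries. Csf1r, the M-CSF receptor, had 255.6, 302.0 and 155.8 FPKM in M1 and 291.4, 257.2 and 239.3 in M1 + PBM, a log2 fold change of 0.19 with an interval from -0.41 to 0.79. Pf4, the gene of platelet factor 4, and Il3ra, the IL-3 receptor chain, had log2 fold changes of -0.36 and -0.062, neither of which passed an unadjusted 0.05 in limma. Among 16 genes of CSF receptor signalling, 15 were tested, 8 lower and 7 higher with PBM, and 0 were called. Socs1, an inhibitor of cytokine receptor signalling, was the one gene to reach 0.05 before adjustment. It had 16.3, 12.7 and 13.3 FPKM in M1 and 7.15, 8.78 and 7.40 in M1 + PBM, without overlap. Limma gave it a log2 fold change of -0.78 ± 0.13 (adjusted p = 0.81). Grb2, an adaptor, and Socs3, another inhibitor, had log2 fold changes of -0.33 and -0.43 and did not pass. With the replicate number as a block Socs3 did, at an unadjusted p of 0.027 (limma).

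Regulators of the chemokine and CSF genes formed a list of 20. Of the 19 tested, 16 were lower and 3 higher, where 34.4% of all rows tested had a log2 fold change below 0. Of these regulators 0 were called, and their median log2 fold change was -0.29. Before adjustment, beside 1.45% of all rows on the lower side, 4 reached 0.05, all lower. These were Rela, the p65 subunit of NF-κB (log2 fold change -0.43), Zc3h12a, the endonuclease Regnase-1 that cleaves inflammatory transcripts (-0.54), Tnfaip3, the inhibitor A20 (-0.63), and Cebpb, a transcription factor of macrophage activation (-0.38). Their adjusted p was 0.90 (limma).

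Parts of the 3′ UTRs of Cxcl1, Cxcl2, Csf2 and Csf3 are shown for their AU-rich elements, with ATTTA in capitals in DNA letters. Each is the first window of 30 bases with the most copies of ATTTA in the longest annotated 3′ UTR. It was picked for its copies and is not a typical stretch. The windows hold 4, 5, 5 and 3 copies. Those of Cxcl3, Csf1 and Cxcl5, which are not printed, held 2, 2 and 1. Sequences were read from GENCODE release M21 transcripts (build GRCm38).
Cxcl1 3′ UTR, chr5:90892602-90892631, plus strand: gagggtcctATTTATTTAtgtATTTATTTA
Cxcl2 3′ UTR, chr5:90905327-90905356, plus strand: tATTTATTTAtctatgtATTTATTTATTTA
Csf2 3′ UTR, chr11:54247329-54247358, minus strand: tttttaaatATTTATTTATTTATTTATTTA
Csf3 3′ UTR, chr11:98702984-98703013, plus strand: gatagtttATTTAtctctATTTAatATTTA

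Copies of ATTTA in the whole 3′ UTR numbered 7 in Cxcl1, 11 in Cxcl2, 5 in Cxcl3, 5 in Cxcl5, 4 in Csf1, 9 in Csf2, 6 in Csf3 and 0 in each of the receptors. Per kilobase this was 28.4 in Csf2, 11.8 in Cxcl1, 8.97 in Csf3, 7.75 in Cxcl3, 7.36 in Cxcl2, 4.50 in Cxcl5 and 1.89 in Csf1, against 1.82 over 9150 tested genes with an annotated 3′ UTR. The longer element TATTTAT occurred in all 7 ligand genes and in 29.8% of those genes, and 3 or more copies were held by Cxcl1, Cxcl2 and Csf2 and by 3.84% of those genes. Among the ligands Csf1 had the fewest copies per kilobase.

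**Figure D4:**
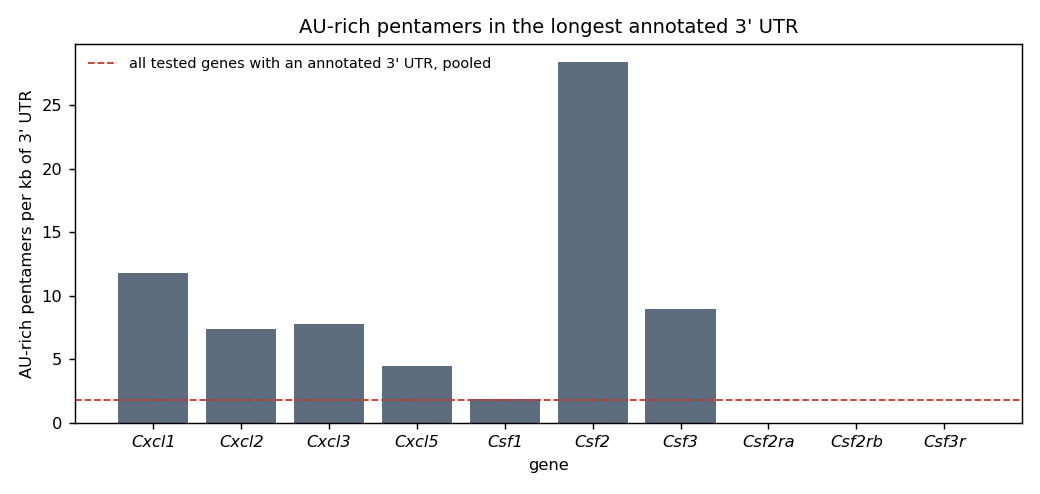
Copies of the AU-rich pentamer per kilobase of the longest annotated 3′ UTR; bars are genes and the dashed line is the pooled value of 9150 tested genes, 1.82. Csf2 stands highest at 28.4, and the receptor genes have 0.

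The M0 values come from a separate table, which entered no test, so the levels are given as a description. As deposited, the median log2 difference of M1 minus M0 over 13915 rows was -0.34, and with median-of-ratios scaling over all 9 libraries it was 0.042. Cxcl1 had 0.30, 0.15 and 13.3 FPKM in M0 replicates 1 to 3, Cxcl2 had 2.72, 0.94 and 65.0, and Csf1 had 1.07, 0.93 and 11.6. In each of these 3 genes M0 replicate 3 was within or above the range of the M1 libraries, while M0 replicates 1 and 2 were far below it. Cxcl5 was at 0, 0.016 and 2.47 FPKM.

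Csf3 and Cxcl3 were low in all M0 libraries. Csf3 had 0.040, 0.011 and 0.95 FPKM, and Cxcl3 had 0.019, 0.017 and 0.68. The log2 difference of M1 minus M0 was 3.72 for Csf3 and 2.50 for Cxcl3, or 4.06 and 2.84 relative to the median of all rows. Without M0 replicate 3 the log2 difference was 4.03 for Csf3 and 2.74 for Cxcl3. The plain ratio of mean FPKM, M1 to M0, went from 69.9 to 917 for Csf3 and from 31.3 to 421 for Cxcl3 without that library. The log2 difference moved more for the ligands above 1 FPKM in M0 replicate 3. With and without that library it was 2.01 and 3.19 for Cxcl1, 3.60 and 5.14 for Cxcl2, 0.59 and 1.19 for Cxcl5, and 0.96 and 1.84 for Csf1.

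Csf3r had the largest difference of the receptors, with 17.1, 24.2 and 11.6 FPKM in M0 against a lowest M1 value of 101.9. Csf2rb had 37.2, 22.3 and 20.2 FPKM in M0, all below the M1 libraries. Csf2ra had 80.7, 61.5 and 60.4 FPKM in M0, overlapping M1, and its log2 difference of -0.13 turned to 0.37 with the median-of-ratios scaling. Every M1 library was above every M0 library for 4 of the 10 genes, Cxcl3, Csf3, Csf2rb and Csf3r, against 15.6% of the 13915 rows with at least 1 FPKM in at least 3 of the 9 libraries. Csf2 is not among those rows. Without M0 replicate 3 it held for every one of the other genes except Csf2ra, against 18.7% of the rows, and also for Csf2, which was listed at 0 in M0 replicates 1 and 2.

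M0 replicate 3 exceeded the mean of M0 replicates 1 and 2 by a log2 difference of at least 1 for Cxcl1 (3.55), Cxcl2 (4.54), Cxcl5 (1.79) and Csf1 (2.66), as did 3.24% of all rows. The added 1 FPKM lessens this difference for low genes. In plain FPKM, M0 replicate 3 stood at 38.4 times the mean of replicates 1 and 2 for Cxcl3. For Csf3 it stood at 37.3 times, beside 35.5 times for Cxcl2 and 11.6 times for Csf1. The receptors in M0 replicate 3 were lower than in replicates 1 and 2, by -0.23 to -0.79 on the log2 scale. In the same library Col1a1, a fibroblast collagen gene, had 122.8 FPKM, against 4.44 and 3.44, and the part of fibroblast transcripts in the chemokine values was not tested. Fibroblast markers summed to 13.2 to 14.9 FPKM in M1 and to 6.39 to 28.1 in M1 + PBM. M1 and M1 + PBM are compared with M0 through shared M0 libraries. The log2 difference of M1 + PBM minus M0 was 1.64 for Cxcl2, 1.56 for Csf3, 0.87 for Cxcl3 and 0.35 for Cxcl1, beside 3.60, 3.72, 2.50 and 2.01 for M1. Without M0 replicate 3 it was 3.18 for Cxcl2, 1.87 for Csf3, 1.11 for Cxcl3 and 1.53 for Cxcl1. Every M1 + PBM library was then above both M0 libraries for these 4 genes. The same held for Cxcl5, Csf1, Csf2, Csf2rb and Csf3r, and Csf2ra overlapped. The share of all rows with this trait was not computed, so whether it is particular to the genes named is not known.

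**Figure D5:**
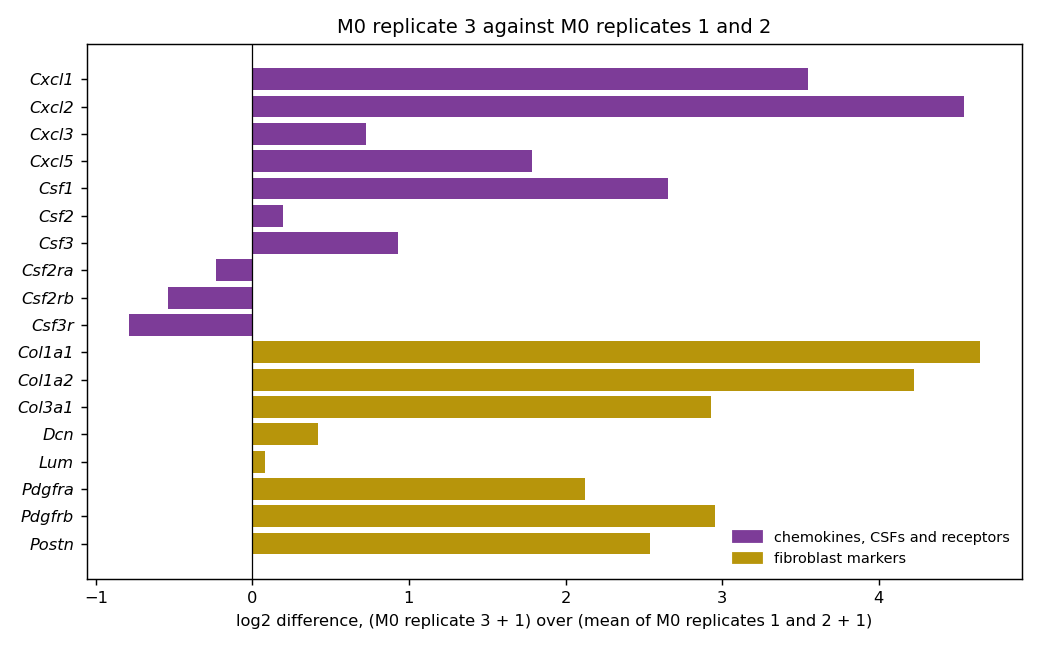
Log2 difference of M0 replicate 3 from the mean of M0 replicates 1 and 2, with 1 added to each FPKM, for the 10 genes and 8 fibroblast markers. Cxcl2 (4.54) and Cxcl1 (3.55) lie to the right with Col1a1 (4.65), and the 3 receptor genes lie below 0.

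The rows most like Cxcl2 over the 6 M1 and M1 + PBM libraries, by Pearson's r of log2(FPKM + 1), were Cnot7 (0.995), Fas (0.987) and Rffl (0.987). Those most like Csf3 were Dubr (0.988), Ier3 (0.986) and Dgat2 (0.985), and those most like Csf3r were Sowahc (0.997), Rhbdf2 (0.992) and Resf1 (0.990). Between the tested members r was highest for Cxcl1 with Cxcl2 (0.93) and Cxcl1 with Csf3 (0.91). It was 0.51 for Cxcl3 with Csf3 and lowest for Cxcl5 with Csf2ra (-0.24). These are descriptions over 6 libraries that share their groups and replicate numbers. The rows most like a gene were picked for the highest r among those tested, and r takes no account of the size of a change. Log2 fold changes were -0.14 for Cnot7, -0.22 for Fas and -0.39 for Rffl, against -1.96 for Cxcl2.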

How the data were processed

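RNA was measured in 3 libraries each of M0, M1 and M1 + PBM macrophages. FPKM values were deposited by the authors as 2 tables (M0, and the other 6 libraries) with the same 55655 row names. The submitters' processing notes name Bowtie 0.12.2 and the build mm9, and the methods name Cufflinks for expression values. The annotation and filters are not given in the sources used here. Symbols were matched for 55154 rows, and 320 row names begin with MSTRG. Groups and replicate numbers came from the labels. The genes and lists were chosen with earlier results of these data known, so their counts are descriptions.

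The PBM comparison used limma 3.58.1 in R 4.3.3 (eBayes with a trend, two-sided) on log2(FPKM + 1), for rows with at least 1 FPKM in at least 3 of the 6 libraries, and p-values were adjusted over all 12238 rows. The fit was tested on simulated data. M0 entered no test. Same-numbered M1 and M1 + PBM libraries deviated together from their group means (r 0.157, 0.469 and 0.462, against -0.491 to 0.0328 for different numbers). Deviations within a group cancel out, so the negative values for different numbers follow in part from the positive ones. The replicate number was therefore also fitted as a block, as an alternative. From the lists of relatives, CSF signalling and regulators, the called genes and the 3 with the lowest p are named, with Csf1r and Csf2rb2 always, and 3 rows most like each tested gene were found, of which those of Cxcl2, Csf3 and Csf3r are given. Cebpb, Cxcr2, Col1a1, Nos2, the neutrophil markers and the sex-linked genes fall outside this rule and were added with their values known. Alternatives changed the pseudocount (0.1), the filter (none, or a mean of 5 FPKM), the scaling (median-of-ratios, quantile) and the trend, added the block, or left out libraries. Coordinates are those of GRCm38 and were not compared with the mm9 files. Python 3.11.15 was used for the rest.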

Additional observations from a re-analysis of the deposited data

How the results depend on the processing

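Under 266 alternative values, 236 were kept, 15 lost a call and 15 moved. A PBM fold change was kept by direction and side of the thresholds (Csf2 by direction alone). An M1 minus M0 difference was kept within the replicate spread. That spread includes M0 replicate 3, so leaving this library out counted as kept although Cxcl2 went from 3.60 to 5.14. Counts of called genes were judged by relative change, so 3 of the 10 genes called in place of 4 counted as kept. No called value changed sign, and the untested M1 minus M0 difference of Csf2ra did (-0.13 to 0.37 with median-of-ratios scaling). The log2 fold change of each of the 10 genes stayed negative in all its PBM alternatives. Over all rows, 32 genes were called, 75 with a pseudocount of 0.1, and 27 to 108 when libraries were left out. Leaving out replicate 2 gave the high counts, 69 (M1), 89 (M1 + PBM) and 108 (both groups). Of the 10 genes 4 were called, and 1 to 3 when libraries were left out, with 2 without M1 replicate 1 or any single M1 + PBM replicate, and 1 without replicate 1 of both groups, an alternative chosen after the sex-linked transcripts were seen. Cxcl1 kept its call throughout, with log2 fold changes from -2.15 to -1.10. Cxcl2 lost it only without replicate 1 of both groups (-1.57). Cxcl3 lost it in 7 of these fits (-1.16 without M1 replicate 1) and Csf3 in 7 (-1.43 without M1 replicate 1). Without replicate 3 of both groups, 3 of the genes were called, and Csf3 was not (-1.73). With the replicate number as a block, which the pairing check allows, 45 genes were called in all and the same 4 of the 10. A mean FPKM of at least 5 left no value for Cxcl3 and Cxcl5. M1 minus M0 moved beyond the replicate spread with a pseudocount of 0.1 for Cxcl3 (4.64), Cxcl5 (2.15), Csf2 (1.35) and Csf3 (5.91), and with median-of-ratios scaling also for Csf2rb (1.82). Depth limits Csf2 most. The causes were not tested.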
